A study of Mus musculus with 12 samples.

Results

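Regions of the mouse retinal genome that lost nearly all of their 5-hydroxymethylcytosine (5hmC) after deletion of the TET enzymes are described here. They were selected on measured 5hmC levels, from the list of regions called by bACE-seq, an assay that combines bisulfite treatment with an APOBEC deaminase, as the autosomal regions with a mean 5hmC level of at least 10% in Cre- retinas and below 1% in Tet tcKO retinas. These limits were met by 12308 of the 592906 bACE-seq regions, and by 2.74% of the 449345 autosomal regions at the same Cre- limit. They are called near-complete losses below, and the remaining 437037 autosomal regions at that limit, with a Tet tcKO level of 1% or more, are called the other regions. Because the limits use the 5hmC levels of both groups, those levels, and the size and spacing of regions called on the same difference, are given as descriptions.

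Whole retinas of mice of strain C57 BL/6J were profiled at postnatal day 21 (P21). Tet tcKO animals carried floxed alleles of Tet1, Tet2 and Tet3 and the Chx10-Cre-GFP transgene, which drives Cre in retinal progenitor cells. Their breeders carried Cre on both copies of the transgene locus to reduce its mosaic activity. Cre- controls, given as wild type in the labels, were age-matched animals from breeders without Cre. Retinas of 2 animals were pooled for a sample. The assays, bACE-seq for 5hmC and whole genome bisulfite sequencing (WGBS) for 5mC and 5hmC together, comprised 12 libraries in total, with 3 for each genotype and assay. The region lists hold 1 mean per group, so no value per library, replicate error or test over samples can be given, and read coverage was not analysed here. Regions share the same libraries and are not replicates of a condition. In bulk retina, fewer cells with 5hmC at a site and less 5hmC per cell cannot be told apart. Expression values were not analysed here, so the labelled tissue was not checked against marker transcripts.

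TET enzymes oxidise 5-methylcytosine (5mC) to 5hmC, which can be oxidised further and replaced by unmodified cytosine, or diluted when DNA is copied without being methylated anew. In neurons, 5hmC is abundant and stable, and it accumulates over the bodies of expressed genes and at enhancers, while active promoters in CpG islands carry little of it. Cells of the retina that do not arise from retinal progenitors, such as microglia and vascular endothelium, would not be expected to express Cre from Chx10. A 5hmC level is an estimate, in percent, of the share of reads at the CpGs of a region that still read as cytosine after bisulfite treatment and deamination. The region caller smooths it along the genome, so it is not a direct count of reads.

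A few near-complete losses show the kinds of sequence involved. They are printed from the GRCm38 (mm10) reference, plus strand, from the first C to the last G of the region, with each CpG in capitals. The region nearest to the coding gene Ntrk2 (chr13:58774320-58774495) is the most CpG-dense of the large losses, and the one in an intron of Lsamp (chr16:41346707-41346826) is among those with the most 5hmC in Cre-. Both contain runs of alternating CA or TG with interspersed CpGs. The regions in introns of Slc9a9 (chr9:94715138-94715257) and Cadps2 (chr6:23756157-23756248) contain no masked repeat letters, and were chosen for a high control 5hmC level and a large WGBS gain, respectively. The intronic regions of Dnmt1 (chr9:20935663-20935832) and Esrrb (chr12:86412644-86412888) lie in a DNA methyltransferase gene and in a gene for a rod nuclear receptor.
Ntrk2: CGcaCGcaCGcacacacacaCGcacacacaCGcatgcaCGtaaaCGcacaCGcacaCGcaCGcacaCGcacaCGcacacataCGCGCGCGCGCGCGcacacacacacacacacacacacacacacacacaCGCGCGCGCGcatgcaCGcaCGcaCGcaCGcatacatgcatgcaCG
Lsamp: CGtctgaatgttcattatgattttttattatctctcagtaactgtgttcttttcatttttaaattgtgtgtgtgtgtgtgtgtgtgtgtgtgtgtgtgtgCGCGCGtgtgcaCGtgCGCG
Slc9a9: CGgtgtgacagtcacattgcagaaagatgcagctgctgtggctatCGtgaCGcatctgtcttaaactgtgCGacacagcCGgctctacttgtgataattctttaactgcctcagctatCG
Cadps2: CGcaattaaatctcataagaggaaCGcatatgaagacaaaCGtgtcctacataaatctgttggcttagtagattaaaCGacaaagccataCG
Dnmt1: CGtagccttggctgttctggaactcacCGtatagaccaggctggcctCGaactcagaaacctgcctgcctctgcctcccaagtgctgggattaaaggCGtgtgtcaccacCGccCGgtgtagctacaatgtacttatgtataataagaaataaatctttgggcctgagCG
Esrrb: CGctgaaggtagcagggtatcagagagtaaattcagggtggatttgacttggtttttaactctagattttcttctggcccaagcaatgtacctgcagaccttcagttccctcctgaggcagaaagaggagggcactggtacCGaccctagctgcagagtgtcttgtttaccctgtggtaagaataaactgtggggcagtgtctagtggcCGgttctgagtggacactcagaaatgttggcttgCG

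Near-complete losses began from a modest 5hmC level. Their median was 12.1% in Cre- (10th to 90th percentile 10.3% to 16.95%, highest 42.6%) and 0.671% in Tet tcKO (range 0.0578% to 1.00%). The other regions had medians of 15.9% and 3.73%. Weighted by CpGs, Tet tcKO retinas kept 4.87% of the Cre- level in the near-complete losses and 24.4% in the other regions. The Cre- level was 20% or more in 484 of the near-complete losses (3.93%). The paper's estimate of the mean share of unmodified cytosines that escape conversion in bACE-seq is above the 1% limit. No correction for it was made here. What part of the Tet tcKO levels below 1%, or of the share kept, is residual 5hmC was not tested.

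The Tet tcKO levels did not fall away smoothly toward 0. There were 758 regions below 0.1%, 1534 from 0.1% to 0.2% and 515 from 0.2% to 0.3%, after which the number rose steadily to 2235 from 0.9% to 1% and 2482 from 1% to 1.1%. Near-complete losses were therefore the lower edge of a broad distribution plus a separate small peak below 0.2%, which held 2292 regions. In this peak 82.1% of the regions had 4 to 5 CpGs, the smallest sizes in the list. Just inside the limit were a region near Tll1 at 10.4% in Cre- and 0.999928% in Tet tcKO and one near Alkal2 at 14.8% and 0.999888%. Just outside were regions near Mpdz at 11.4% and 1.00007% and near Marco at 11.9% and 1.00009%. At the Cre- limit, a region near Hgf at 10.0001% was inside and an intronic region of Daam2 at 9.99951%, with a Tet tcKO level of 0.151%, was outside.

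**Figure D1:**
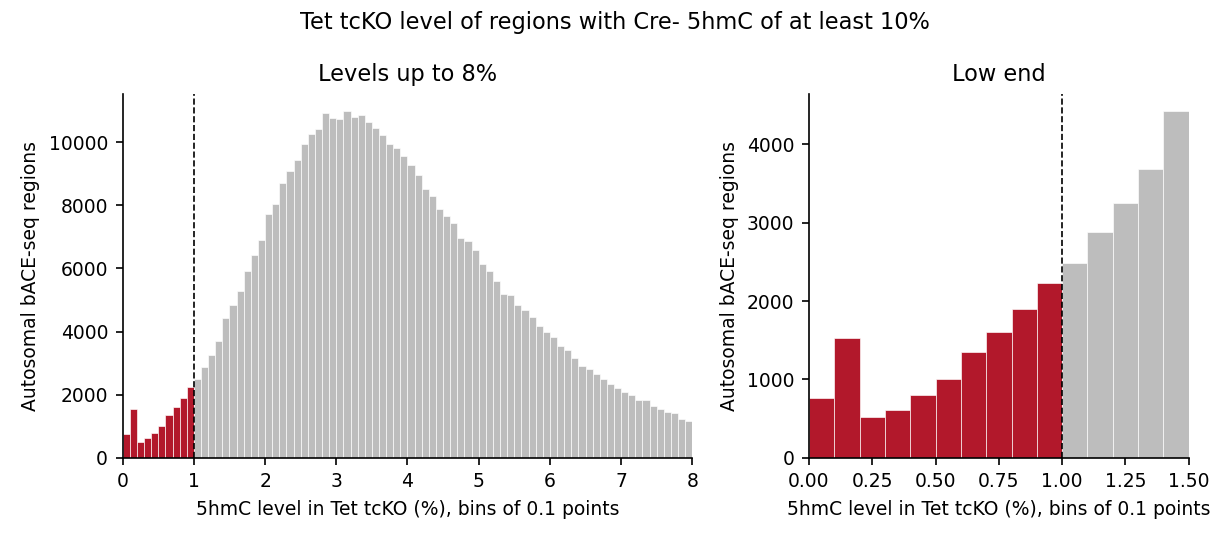
Number of autosomal bACE-seq regions with a Cre- 5hmC level of at least 10% (y axis) by their Tet tcKO 5hmC level in bins of 0.1 percentage points (x axis), up to 8% on the left and for the low end on the right. Red bars left of the dashed line at 1% are the 12308 near-complete losses, with a small peak of 2292 regions below 0.2%.

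The near-complete losses were small and held few CpGs. Their median was 5 CpGs in 390 bp, against 9 CpGs in 638 bp for the other regions, and together they held 70851 CpGs in 5.89 Mb. Regions of 4 to 5 CpGs made up 61.5% of them and 22.4% of the other regions, while regions of 10 or more CpGs made up 7.01% and 48.8%. Read the other way, 7.18% of regions with 4 to 5 CpGs met the limits, 2.99% of those with 6 to 9 and 0.403% of those with 10 or more. CpGs were more thinly spread, at a median of 1.39 against 1.59 per 100 bp, although by classes of CpG number and Cre- level the density was lower in 6 of 9 and higher in 3, those with a Cre- level of 20% or more. The main comparisons below are therefore also given within classes of CpG number. The part that averaging over few CpGs has in these shares was not tested.

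The 8 losses with most CpGs had Cre- levels of 10.0006% to 11.8% and Tet tcKO levels of 0.446% to 0.985%. The largest, of 40 CpGs at chromosome 13, positions 47643393 to 47645229, lay in intergenic sequence 395402 bp from the nearest coding gene, Rnf144b, a ubiquitin ligase, and fell from 11.7% to 0.972%. Next was the CA repeat printed above, 32075 bp from Ntrk2, the receptor for brain-derived neurotrophic factor, with 29 CpGs in 175 bp and levels of 11.1% and 0.877%. An intron of Grin2b, a subunit of the NMDA-type glutamate receptor, held a loss of 25 CpGs, from 10.3% to 0.933%. In an intergenic region of 24 CpGs whose nearest coding gene was Klra2, a natural killer cell receptor, the level went from 11.8% to 0.446%. Coding exons were included in a 23-CpG region of Kin, a DNA- and RNA-binding protein (11.4% to 0.979%), and in one of Liph, a lipase (10.5% to 0.985%).

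Among losses of at least 6 CpGs, the 6 with the highest control level are given as examples. Their levels are those the limits use, and conversion failure was not corrected for. An intronic region of Enah, a regulator of actin filaments, went from 40.2% to 0.206%, and thus kept 0.512% of its control level. The Slc9a9 intron, in a gene for an endosomal sodium-proton exchanger, went from 39.1% to 0.183%, with WGBS from 48.5% to 77.3%. Lsamp, a neuronal adhesion protein, had an intronic region at 36.4% and 0.298%. The remaining regions, closest among coding genes to Ahr, Nova1 and Ufl1, went from 33.0% or more to between 0.226% and 0.794%. Their surroundings differed: the nearest bACE-seq region to the Enah loss, 1226 bp away, was at 56.0% in Cre- and 13.6% in Tet tcKO, whereas the nearest to the Lsamp loss, 5217 bp away, was at 6.87% and 0.128%.

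WGBS was done on other libraries than those used to choose these regions, although from the same DNA extractions, and it asks whether total cytosine modification rose where 5hmC was lost. WGBS regions with a higher level in Tet tcKO (WGBS gains) overlapped 28.9% of all autosomal regions at the same Cre- limit, but only 647 of the 12308 near-complete losses (5.26%), against 29.6% of the other regions. Shares were also compared within classes of CpG number. A WGBS gain was found at 4.00% of the losses with 4 to 5 CpGs against 11.8% of other regions of that size, at 6.08% against 18.4% with 6 to 9, and at 12.5% against 44.3% with 10 or more. The share was lower in the near-complete losses in 9 of 9 classes of CpG number and Cre- level. These classes are wide, the largest is open-ended, and an overlap of 1 bp is more readily reached by longer regions, so size can still differ within a class. Regions just above the limit, with 1% to 2% 5hmC in Tet tcKO, lay between, at 10.0%. Without a called WGBS region the level of total modification was not analysed here, so a loss without a gain may have had a smaller change.

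**Figure D2:**
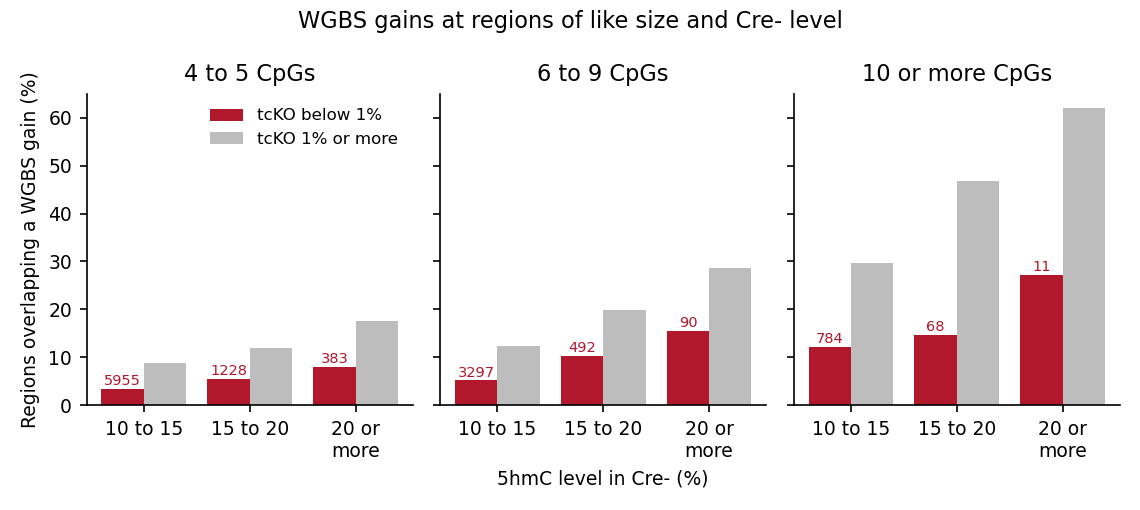
Percentage of regions overlapping a WGBS gain by at least 1 bp (y axis) by Cre- 5hmC level (x axis) and CpG number (panels), for near-complete losses (red, number of regions above each bar) and for other regions (grey). The red bar is below the grey bar in each of the 9 classes, from 3.44% against 8.90% to 27.3% against 61.9%, the last over 11 losses.

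Where a WGBS region was called, its change was of ordinary size. In the 675 near-complete losses with any WGBS region, the median WGBS level went from 60.8% in Cre- retinas to 79.9% in Tet tcKO retinas, and the median change was 17.7 percentage points against 16.3 points for the other regions with a WGBS region. Among regions of 10 or more CpGs the pooled order was the opposite, with 14.6 against 15.7 points, although within that class it was 14.0 against 13.4 points at Cre- levels of 10% to 15% and 15.8 against 15.4 points at 15% to 20%. Of 9 classes of CpG number and Cre- level, the median change was higher in the near-complete losses in 6 and lower in 3. Because only called regions enter, these medians do not describe the remaining losses. The steepest rise was in the Cadps2 intron printed above, in a gene for a protein of dense-core vesicle release, where WGBS went from 23.6% to 83.0% while 5hmC went from 11.6% to 0.152%. A 13-CpG region over a coding exon of Mnat1, an assembly factor of the CDK-activating kinase, went from 19.3% to 70.8% by WGBS and from 17.9% to 0.740% in 5hmC. Intergenic regions closest to Stmnd1, Kitl (the ligand of the Kit receptor), Man1a2 and Alg10b rose by between 46.2 and 51.8 points. In these 6 regions the WGBS level of Cre- was 15.6% to 36.1%. A rise of this size has to start below the median of 60.8%, so that order follows from how they were chosen.

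A lower WGBS level in Tet tcKO (WGBS loss) was found at 28 near-complete losses, 0.227% of them, where 0.081% of all autosomal regions at the same Cre- limit and 0.0769% of the other regions overlapped one. Their median WGBS level went from 84.8% to 59.98%, and none overlapped a WGBS gain as well. The largest falls were 37.8 points near Ddit4l, an inhibitor of mTOR signalling, 35.4 points in an intron of Impg1, a proteoglycan of the matrix around photoreceptors, and 34.6 points near Phip. Of the 28, 9 lay on chromosome 9 and 4 each on chromosomes 3 and 12. All 9 on chromosome 9 fell between positions 80000001 and 87000000, a stretch chosen after these regions were seen. In it 89 of 1145 regions (7.77%) were near-complete losses, against 504 of 25214 (2.00%) on the rest of that chromosome. The other regions had more WGBS losses there too, at 35 (3.31%) inside the stretch against 23 (0.0931%) on the rest of chromosome 9. The median GC content of the 100 kb around its regions was 40.9%, against 44.6% on the rest.

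Near-complete losses were in intergenic sequence, and far from start sites, more often than the other regions. Their midpoints were in promoters, within 2 kb of a start site, in 454 cases (3.69%, against 7.37%), in gene bodies in 6113 (49.7%, against 58.7%) and in intergenic sequence in 5741 (46.6%, against 33.9%). Exons held 3.03% against 4.38%. The promoter share was lower, and the intergenic share higher, in 9 of 9 classes of CpG number and Cre- level. The median distance to the nearest start site was 38838 bp against 22837 bp. Regions with 1% to 2% 5hmC in Tet tcKO lay between, with 5.11% in promoters, 43.2% in intergenic sequence and a median distance of 29234 bp. Of all regions within 500 bp of a start site 1.46% were near-complete losses, and of those at least 200000 bp away 7.46%.

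**Figure D3:**
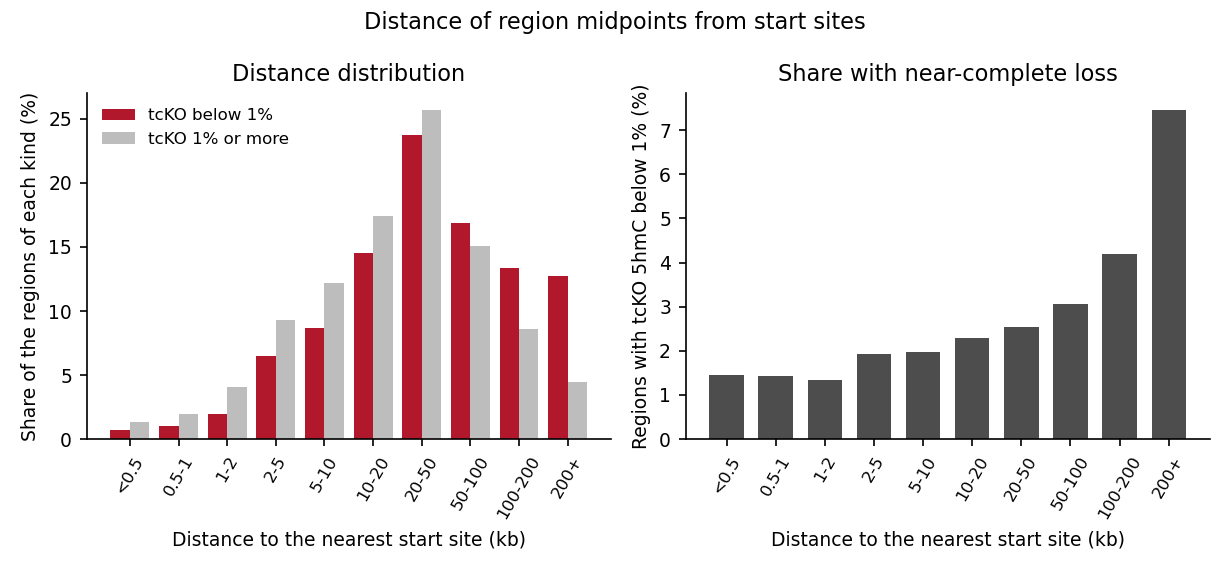
Distance from region midpoints to the nearest start site (x axis, kb) as the percentage of near-complete losses (red) and of other regions (grey) in each distance class on the left, and the percentage of all regions in a class that were near-complete losses on the right. That percentage is 1.35% to 1.46% in the classes up to 2 kb and 7.46% in the farthest.

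The 8 promoter losses with most CpGs lay at start sites of coding and of noncoding genes. A region of 18 CpGs near Hspg2, which encodes the basement membrane proteoglycan perlecan, lay 680 bp from a start site and went from 13.8% to 0.942%. At Hmgn3, a nucleosome-binding protein, a region of 17 CpGs overlapping an untranslated exon, 359 bp from a start site, went from 11.0% to 0.880%. A 16-CpG region 1154 bp from a start site of Nr2f2, an orphan nuclear receptor, fell from 10.9% to 0.803%, and one of 15 CpGs over untranslated and coding exons of Dnah12, an axonemal dynein, from 10.5% to 0.770%. A region of 15 CpGs lay 1685 bp from a start site of Slc45a1 (10.7% to 0.484%), and the start sites nearest to the remaining 3 were those of long noncoding genes.

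Compared with the other regions, near-complete losses had a lower GC content at each scale examined. Their own GC content had a median of 42.5%, against 46.2% for the other regions, and was lower in 9 of 9 classes of CpG number and Cre- level. The 100 kb around them had a median of 41.5% against 44.1%. Regions with 1% to 2% 5hmC in Tet tcKO lay between, at 44.7% for their own GC content and 43.0% for the 100 kb. The difference was thus graded and not particular to the near-complete losses. When all regions at the Cre- limit were divided into quintiles by the GC content of the surrounding 100 kb, the share of near-complete losses was 6.22% in the quintile with least GC and then 2.92%, 2.01%, 1.51% and 1.05%. The decline held within each class of CpG number: from 11.2% to 3.76% with 4 to 5 CpGs, from 4.85% to 1.77% with 6 to 9, and from 0.992% to 0.194% with 10 or more. Tet tcKO levels as a whole moved the same way, with a median over all regions of 3.26% in the lowest quintile and 3.90% in the highest, while the Cre- medians were 15.96% and 15.6%. The part that base composition has in the measured levels was not tested.

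**Figure D4:**
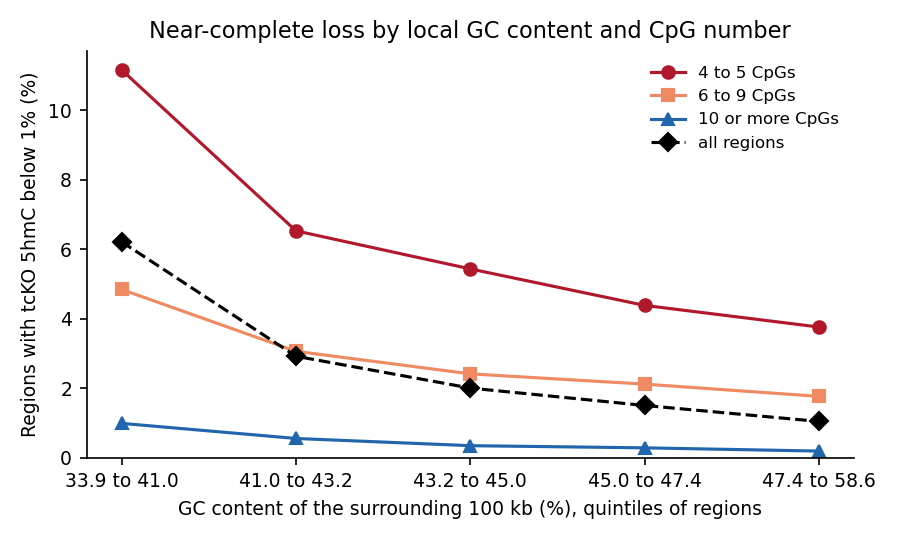
Percentage of regions with a Tet tcKO 5hmC level below 1% (y axis) by the GC content of the surrounding 100 kb, in quintiles of all autosomal regions with a Cre- level of at least 10% (x axis). Lines are classes of CpG number and the dashed line all regions, and each of the 4 falls from the lowest to the highest quintile, for all regions from 6.22% to 1.05%.

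Chromosomes followed the same order. The share of near-complete losses ran from 1.93% on chromosome 11 to 3.802% on chromosome 3, and these are the autosomes with the highest and the lowest GC content (43.8% and 40.5%). Over the 19 autosomes Pearson's r between the share and GC content was -0.946 and Spearman's rho -0.914, and r was -0.921 without the 2 chromosomes farthest from the median GC content. This is a description, since all chromosomes were read in the same libraries.

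**Figure D5:**
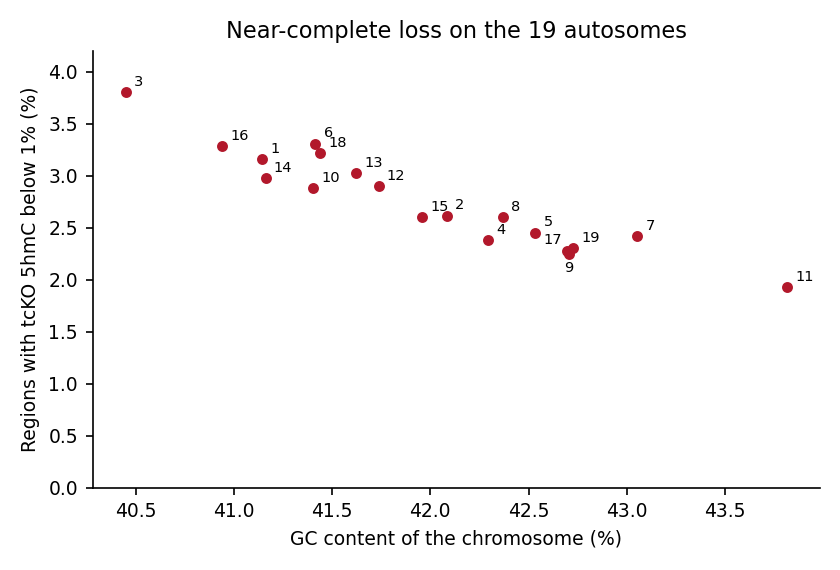
Percentage of regions with a Cre- level of at least 10% that were near-complete losses (y axis) by the GC content of the chromosome (x axis), with 1 numbered point per autosome. The points descend from 3.802% on chromosome 3 to 1.93% on chromosome 11.

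Around their CpGs the losses were richer in A and T as well. The base before the C of a CpG, read on both strands, was A in 32.1% of their CpGs against 28.2% in the other regions, T in 24.8% against 22.5%, C in 23.4% against 27.4% and G in 19.7% against 21.9%. Short letter strings bound by retinal and general factors were counted on both strands in 300 bp around each midpoint. GGATTA, the core string of the photoreceptor factors CRX and OTX2, was in 14.3% of the near-complete losses, 16.2% of the other regions and 14.7% of all autosomal bACE-seq regions. In regions with 1% to 2% 5hmC in Tet tcKO its share was 14.3% as well. TGCTGA, part of the site of the rod factor NRL, was in 21.3% against 22.9% of the other regions. The E-box CAGCTG was in 11.7% against 15.96%, and CATCTG, which is CAGATG on the other strand, in 21.9% against 24.8%. AAGTCA, a string of the rod nuclear receptor NR2E3, was in 19.8% against 19.4%, and GGGCGG, the GC box, in 2.70% against 4.63%. These are letter matches in windows of differing GC content and not binding sites.

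Repeats took a larger part of the near-complete losses. Soft-masked letters of the reference, which mark interspersed and simple repeats, made up 26.0% of their bases against 21.0%, with a higher share in 8 of 9 classes of CpG number and Cre- level, and 431 regions (3.50% against 0.861%) lay in masked sequence from end to end, as the Dnmt1 and Ntrk2 regions above did. Of all regions at the Cre- limit without any masked base 3.50% were near-complete losses, of those with fewer than 25% masked bases 2.26%, and of those masked throughout 10.3%. The median CpG numbers of these classes were 6, 11 and 5, so they differ in size as well. A run of 6 CA or TG dinucleotides, counted in the same 300 bp after the printed sequences had been seen, was in 6.33% of the near-complete losses against 4.31%. The excess was clearest in regions of 10 or more CpGs, at 10.1% against 4.30%. For a run of 3 CG dinucleotides, as in Lsamp, the shares in that class were 4.29% against 0.688%, and in regions of 4 to 5 CpGs 0.0529% against 0.129%. Reads of repeats are harder to place, and their part in the levels was not tested.

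The regions next to near-complete losses kept a somewhat smaller part of their 5hmC than those next to the other regions. That they kept more than the losses themselves largely follows from the limits. The nearest bACE-seq region lay a median of 1437 bp away, against 664 bp for the other regions, and the distance was longer in 9 of 9 classes of CpG number and Cre- level. Its median Tet tcKO level was 2.484%, with 20.2% of the Cre- level kept, where neighbours of the other regions stood at 3.42% and kept 23.3%. For the 1683 losses with a neighbour within 500 bp, the neighbours kept a median of 22.3% and stood at 2.73% in Tet tcKO. The neighbour was itself a near-complete loss in 4.04% of cases, against 1.74% for the other regions. From 1 near-complete loss to the next the median gap was 55092 bp, with 13.1% of them under 10 kb and 30.6% over 100 kb. The list joins CpGs by their difference between groups, so a stretch with lower levels can be split off from its surroundings by the call.

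The share of regions that were near-complete losses was higher in longer coding genes, going from 1.23% of the 7371 regions in genes under 10 kb to 2.00% of 49205 in genes of 50 to 100 kb, 1.88% of 56687 in genes of 100 to 200 kb, 2.27% of 59335 in genes of 200 to 500 kb and 4.54% of 12275 in genes of 1000 kb or more. Regions in overlapping genes are counted in each. At least 1 midpoint lay in 3139 of the 16281 coding genes with any region at the Cre- limit, and 2062 of these genes held 1. There were 190 genes with 5 or more, and a gene with more regions has more chances to reach such a count. The genes named next were chosen after their values were seen. Dlg2, a postsynaptic scaffold, held 25 of its 321 regions (7.79%), Macrod2 22 of 275 (8.00%) and Lsamp 19 of 275 (6.91%). The proportion was higher in Erbb4, the receptor for neuregulins, at 17 of 71 (23.9%), in the adhesion protein gene Cntn4 at 16 of 73 (21.9%) and in Cntnap2 at 17 of 115 (14.8%). It was below the 2.74% of all regions in Fgfr2, a growth factor receptor gene annotated here over 2961 kb, at 17 of 884 (1.92%), so a count of losses and a high proportion did not always go together.

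Lists of retinal genes, each extended by 5 kb on both sides, held 31 near-complete losses in 25 of their 125 genes. Without such an extension, 3139 of the 16281 coding genes with any region at the Cre- limit held a loss. Of 336 regions at 13 photoreceptor transcription factors 2 were near-complete losses (0.595%), of 327 at 20 rod phototransduction and outer segment genes 2 (0.612%), and of 276 at 12 bipolar cell genes 2 (0.725%), where all regions gave 2.74% and regions of 10 or more CpGs 0.403%. Regions at these 3 lists had medians of 10 to 13 CpGs. Lists with higher shares, given below, had medians in the same range. These were cone phototransduction (10), amacrine and horizontal (12), Müller glia (13), vascular and astrocyte (12) and DNA methylation genes (12). Ganglion cell and microglia genes had medians of 9. The first 2 lists had median Cre- levels of 20.7% and Tet tcKO levels of 4.99% and 4.82%. Cone phototransduction genes had 3 of 125 (2.40%), amacrine and horizontal cell genes 3 of 122 (2.46%), Müller glia genes 3 of 125 (2.40%), ganglion cell genes 4 of 116 (3.45%) and microglia genes 4 of 157 (2.55%). Vascular and astrocyte genes had 3 of 210 (1.43%) and genes of DNA methylation and demethylation 5 of 239 (2.09%). The counts are too small to order the lists, and the lists differ in CpG number and Cre- level.

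The losses at listed genes with most CpGs were mostly in introns. This was not particular to them, as 58.5% of all autosomal regions at the Cre- limit lay in gene bodies and 4.35% in exons. Only 2 of the 13 photoreceptor transcription factors had any loss, Esrrb with 1 of 53 regions and Thrb with 1 of 107. Crx, Otx2, Nrl and Nr2e3 had 0 of 5, 9, 7 and 10 regions. These numbers are too small to set beside the 2.74% of all regions. The Esrrb intron went from 16.4% to 0.0790%, and an intron of Thrb, the thyroid hormone receptor that acts in cones, from 14.4% to 0.984%. Of the 20 rod genes 2 had a loss, and a region over coding sequence of Cngb1, the rod channel subunit, went from 19.2% to 0.534%. Cngb3, the cone channel subunit, had 2, and the one with more CpGs, in an intron, went from 10.7% to 0.919%. Stmn2, a neuronal regulator of microtubules in the ganglion cell list, had 2, and the one with more CpGs went from 17.4% to 0.884% with a WGBS gain from 40.5% to 72.6%. At Chat, which makes acetylcholine in starburst amacrine cells, one intron went from 10.3% to 0.565% with WGBS from 34.6% to 65.9%, and another from 12.9% to 0.447% with WGBS from 68.4% to 84.4%. Aqp4, the water channel of Müller glia, had a loss at its coding sequence 272 bp from a start site, from 10.6% to 0.931%, and an intronic one from 16.3% to 0.591% with WGBS from 34.2% to 62.2%. Of the 12 microglia genes 5 had a loss, but there were 4 losses, since 1 was counted for both C1qa and C1qc. Ptprc, the leukocyte surface protein CD45, had an intronic one from 12.5% to 0.440%. Of the 10 vascular and astrocyte genes only 1 had any. This was Flt1, a receptor for vascular endothelial growth factor, with 3 losses at Tet tcKO levels of 0.458% to 0.942%. In bulk retina the cells that carried these losses cannot be told. Dnmt1, the maintenance methyltransferase, and Mbd4, a glycosylase that repairs mismatches at methylated CpGs, had 2 and 1. The fully masked Dnmt1 region printed above went from 12.4% to 0.759% and the Mbd4 region, in an intron, from 12.6% to 0.785%.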

How the data were processed

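Genomic DNA of whole P21 retina was assayed by WGBS and bACE-seq. Groups came from the sample labels. As the study's methods describe, reads were trimmed by the authors (TrimGalore 0.4.4_dev), aligned to mm10 (Bismark 0.18.2), filtered to a mapping quality of at least 10 and freed of duplicates, and regions were called with DSS 2.48.0 (p under 0.01 per CpG, at least 3 CpGs and 50 bp, joined within 50 bp). DSS smooths levels along the genome, so levels of neighbouring CpGs are not independent. The deposited group means are a fraction from 0 to 1, computed by the authors over 3 libraries, and were multiplied to percent here; which mean belongs to which group follows the order in the authors' name for the list. The authors' columns of differences and area statistics were not used. Depth, conversion failure and replicate values were not analysed here, which leaves the precision of a level unknown.

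Members, gene lists and named regions were chosen with earlier results of these data known. Every region started and ended on a CpG of GRCm38. Genes were the 32093 coding and long noncoding genes of GENCODE M21 (basic, 57083 transcripts). Overlap required 1 bp; of 193836 WGBS regions 191164 were gains and 2672 losses. The WGBS level at a region is the mean of the WGBS regions on it, weighted by CpGs. Named regions were those with most CpGs, the highest Cre- level (at least 6 CpGs), the largest WGBS changes, those at listed genes, at promoters, and at the limits. Alternatives changed the limits, CpG number, chromosomes, overlap, promoter window and annotation. Interval operations were tested on simulated data (Python 3.11.15, NumPy 2.4.6, pandas 2.3.3).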

Additional observations from a re-analysis of the deposited data

How the results depend on the processing

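Of 86 alternative values for 10 results, 30 moved by less than the 95% interval of the value (which covers sampling of regions only) or by less than 1.5 times for counts. A further 56 moved more. The sign changed in 0, but only the WGBS change could change sign, as the remaining results cannot be negative. No paired analysis was possible because the lists hold group means only. The planned limit on the area statistic was not run, since that column is the authors' own comparison. Limits on Tet tcKO of 0.2% or more and on the upper 3 quintiles of local GC were chosen after seeing the data. The number of losses was 4219 with a Tet tcKO limit of 0.5%, 58381 at 2%, 2272 with a Cre- limit of 15%, 4742 and 863 with at least 6 and 10 CpGs and 4097 in the GC-rich quintiles. In that order, WGBS gains overlapped 4.24%, 9.01%, 7.75%, 7.25% and 12.5%; at 50% coverage 2.83% and for gains of 20 points or more 2.18% (other regions 9.91% and 10.2%). Median CpG number was 4 and 6 with Tet tcKO limits of 0.5% and 2%. CpGs per 100 bp were 1.43, 1.46, 1.29, 1.40, 1.53 and 1.48 in the order above, and 1.36 with Tet tcKO of 0.2% or more. The WGBS change was 16.02 points at 2%, 20.0 at a Cre- limit of 15%, 16.7 and 14.6 with 6 and 10 CpGs, 16.9 in the GC-rich quintiles and 18.7 at 50% coverage; the 14.6 lies below the pooled 15.7 of other regions of that size. Promoter shares were 3.25% and 4.81% at 0.5% and 2%, 4.28% and 4.40% with 6 and 10 CpGs, 5.64% in the GC-rich quintiles (other regions 8.86%), and 1.72% and 10.2% with windows of 1 and 5 kb (other regions 3.30% and 16.7%). Gene body shares were 48.2%, 51.2%, 54.0%, 51.6%, 50.6% (0.5%, 2%, Cre- 15%, 6 CpGs, GC-rich) and 43.8% with coding genes only, and intergenic shares 48.5%, 44.0%, 42.3%, 44.2%, 43.8% and 53.8%. Masked bases were 23.6% at 2% and 27.5% in the GC-rich quintiles. The gap to the next region was 1747 bp, 1064 bp, 1212 bp, 946 bp and 923 bp (0.5%, 2%, 6 CpGs, 10 CpGs, GC-rich), 1492 bp with chromosome X and 1327 bp with Tet tcKO of 0.2% or more. The cause of these shifts was not tested.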

Other observations

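Chromosome X was outside the limits used above. Of its 6830 bACE-seq regions with a Cre- level of at least 10%, 714 (10.5%) were below 1% in Tet tcKO, a larger share than on any autosome, where the highest was 3.802% on chromosome 3. The GC content of chromosome X was 39.3%. These 714 regions had a median of 5 CpGs and median 5hmC levels that went from 12.3% in Cre- retinas to 0.567% in Tet tcKO retinas, 33 of them (4.62%) overlapped a WGBS gain, against 13.3% of all X regions at the Cre- limit, and 0 overlapped a WGBS loss. Sex of the animals was not used here, and the numbers of X chromosomes in the 2 groups were not compared.

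The small peak below 0.2% in Tet tcKO, with 2292 near-complete losses, differed from the remaining 10016 in several measures. Its regions had a median of 4 CpGs against 5, a gap of 1991 bp to the next region against 1327 bp, a local GC content of 40.4% against 41.7% and a distance of 47178 bp to a start site against 37214 bp. They overlapped a WGBS gain in 3.58% of cases against 5.64%, and a WGBS loss in 10 cases (0.436%) against 18 (0.1797%). CpG density was higher, at 1.51 against 1.36 per 100 bp, masked bases made up 25.2% against 26.1%, regions without masked bases 20.2% against 14.7%, and exons held 3.53% against 2.92%. With at least 5 CpGs per 100 bp, 366 near-complete losses (2.97%) were CpG-dense, against 6950 other regions (1.59%). These dense losses had a median length of 75 bp, 24.9% of them were masked throughout against 15.5% of the dense other regions, 4.098% against 6.20% were in promoters, and 3.83% against 16.4% overlapped a WGBS gain. Below the Cre- limit of 10%, a further 33787 autosomal regions had a Tet tcKO level under 1%.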
